A study of Mus musculus with 60 samples.

Results

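The chemokine ligand genes of the mouse were followed through the conversion of adult hepatocytes into IL6-induced hepatocyte progenitor cells (IL6-iHPCs), through their maturation back toward hepatocytes (IL6-iMHs), and through liver regeneration after surgery. Members were taken by name, as every gene whose symbol begins with Ccl or Cxcl and a number, together with Cx3cl1 and Xcl1. This gave 37 of the 19456 gene symbols in both tables, 35 in the table of cultured cells and 36 in the table of livers, with 34 in both. Cxcl15 was listed in the cell table and not in the liver table, and Ccl21b and Ccl26 in the liver table and not in the cell table. The levels are FPKM values, that is reads relative to the length of the transcript and to the depth of the library, from RNA sequencing of polyadenylated RNA.

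All samples carry the labels WT and C57BL/6, and the study's methods give mice aged 8 to 10 weeks for hepatocyte isolation and for surgery. The study describes its lines from single hepatocytes as grown from offspring of Albumin-Cre and tdTomato reporter mice, which the label of clone-1 does not mention. The cell table holds 11 groups of 3 samples. Hepatocytes were freshly isolated. IL6-iHPCs-D3 (P0) and IL6-iHPCs-D14 (P0) are primary cultures at day 3 and day 14 in a medium with EGF, HGF, dexamethasone and IL6 at 30 ng/ml. The passaged IL6-iHPCs are the lines mouse-1 (P10), mouse-2 (P10), mouse-1 (P35) and clone-1 (P20), where P is the passage number and clone-1 was grown from a single hepatocyte. IL6-iMHs carry the labels of the same 4 lines, after 7 days in a maturation medium with oncostatin M and dexamethasone. The liver table holds 6 groups of 3 whole livers, Normal liver and PHX-6h, PHX-24h, PHX-D3, PHX-D7 and PHX-D14, named for the time after partial hepatectomy (PHX), the surgical removal of most of the liver. The study describes the 3 samples of a cell group as technical repeats without saying whether they share a culture, and nothing states that the 3 livers of a group are separate operations, so p-values here cover only the spread between these samples.

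Chemokines are small secreted proteins that direct the migration of leukocytes by binding G-protein-coupled receptors. They are named after the spacing of their first cysteines, as CC, CXC, CX3C and XC chemokines. CXC chemokines with a Glu-Leu-Arg (ELR) motif before the CXC motif, such as Cxcl1, Cxcl2, Cxcl3 and Cxcl5, attract neutrophils through Cxcr2. Cxcl9 and Cxcl10 are induced by interferon and attract T cells and NK cells through Cxcr3. In the liver, Kupffer cells, hepatocytes, endothelial cells and stellate cells can all be sources of chemokines after injury.

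Many of these genes lie in clusters in the mm10 (GRCm38) mouse genome, by the GENCODE annotation. The ELR genes Cxcl5, Cxcl3, Cxcl15, Cxcl1 and Cxcl2 span chr5:90759360-90905938, and Cxcl9 and Cxcl10 span chr5:92321347-92348889. Chromosome 11 holds Ccl2, Ccl7, Ccl11, Ccl12, Ccl8 and Ccl1 at chr11:82035571-82305690, and Ccl5, Ccl9, Ccl6, Ccl3 and Ccl4 at chr11:83525778-83664683. Cxcl12 lies apart at chr6:117168535-117181367. RefSeq promoter sequences (GRCm38.p6) were held for 27 of the 37 members. The promoters of Ccl11, Ccl2, Ccl24, Ccl26, Ccl4, Ccl5, Ccl7, Cxcl16, Cxcl17 and Cxcl5 were not searched. Among the 250 bases before the start site, searched on both strands, the NF-kappaB consensus site was found in 7 of 27 members (Ccl1, Ccl20, Ccl9, Cxcl1, Cxcl10, Cxcl2 and Cxcl3) and in 7.25% of all 32851 promoters. The interferon-stimulated response element, searched as GAAA, any 2 bases and GAAA again, was found in Ccl19, Cxcl10 and Cxcl14 (2.98% of all promoters). The STAT-binding GAS element, searched as TTCNNNGAA, was found in Ccl17 and Cxcl14 (7.02% of all promoters), and TATAAA was found in 8 members (12.4% of all promoters). A match describes letters only and is not evidence of binding. The 4 stretches below belong to genes whose levels the results turn on. They are read 5′ to 3′ on the strand of the gene, with the NF-kappaB consensus matches in capitals and, in Cxcl10, also the first match to the interferon element. Each capital run in the ELR genes holds a pair of overlapping matches.
Cxcl1, chr5:90891095-90891204, plus strand, 150 to 41 bases before the start: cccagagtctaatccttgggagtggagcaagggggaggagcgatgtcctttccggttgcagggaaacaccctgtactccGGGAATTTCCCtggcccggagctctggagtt
Cxcl2, chr5:90903749-90903858, plus strand, 150 to 41 bases before the start: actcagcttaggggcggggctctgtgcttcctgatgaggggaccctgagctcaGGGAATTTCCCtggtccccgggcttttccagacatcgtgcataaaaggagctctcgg
Cxcl3, chr5:90785951-90786060, plus strand, 150 to 41 bases before the start: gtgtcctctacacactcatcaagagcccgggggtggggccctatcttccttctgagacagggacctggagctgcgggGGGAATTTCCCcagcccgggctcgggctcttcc
Cxcl10, chr5:92348980-92349109, minus strand, 220 to 91 bases before the start: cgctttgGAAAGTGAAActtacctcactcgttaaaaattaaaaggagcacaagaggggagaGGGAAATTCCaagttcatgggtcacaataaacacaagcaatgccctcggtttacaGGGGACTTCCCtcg
The same 11 letters GGGAATTTCCC stand in the promoters of all 3 ELR genes shown. No interferon element was matched in those 3 within this window.

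The sequencing depth recovered from the values was 49.3 to 88.8 M reads per sample in the cell table and 52.0 to 79.2 M in the liver table. Libraries were checked against their labels before any comparison. Reads of 4 Y-linked genes summed to 6575 to 9095 in the clone-1 IL6-iHPC samples and to 0 in the clone-1 IL6-iMH samples, which goes against their shared label as 1 line, and averages over the lines and the test of differences between them are given with and without clone-1. The hepatocytes held 994 to 1550 such reads, day 3 and day 14 cultures 9185 to 18444, and the other passaged lines 2 or fewer at either stage, so donor and culture cannot be told apart in comparisons with hepatocytes. The 4 genes summed to 46.2 to 66.7 FPKM in Normal livers and 34.0 to 79.0 FPKM from 6 h to day 3 after surgery. Their sum was 27.5 to 35.5 FPKM at day 7 and 17.2 to 21.0 FPKM at day 14, below every Normal liver. Of the 4, 3 were called lower than in Normal livers at day 14 and 0 at the other times. The part of this shift in the day 7 and day 14 results was not tested. PHX-D3 replicate 2 stood apart from the other PHX-D3 livers (correlation of log2 values 0.902 and 0.882), whereas the lowest correlation of replicates in the cell table was 0.99. The 6 hepatocyte markers summed to 76484 to 82652 FPKM in hepatocytes and 30841 to 67766 FPKM in livers. In bulk samples, fewer cells of a type and less RNA per cell cannot be told apart. Quantile normalization moved the median log2 difference of all genes from 1.14 to 0.11 at day 3 against hepatocytes and from 0.93 to 0.13 for passaged IL6-iHPCs, and the share of called genes that were higher from 81.6% to 53.6% and from 81.0% to 54.5%. The corresponding share fell from 79.4% to 52.8% at day 14, from 73.5% to 51.4% for P35 against P10, from 76.1% to 54.0% for IL6-iMHs against hepatocytes, and rose from 23.8% to 52.0% for IL6-iMHs against IL6-iHPCs. In livers it moved from 29.3% to 52.9% at 6 h, from 77.2% to 52.0% between 6 h and 24 h, from 88.4% to 72.4% at day 7 and from 32.9% to 47.6% at day 14.

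In the cells 18 members reached 1 FPKM in at least 3 samples and entered the test, and 17 did not. In the livers 20 entered and 16 did not, and 13 entered in both. The members left out of the cell table were low throughout, with Ccl6 the highest at 1.35 FPKM in a hepatocyte sample and Ccl19 listed at 0 in every sample. Among the other untested members there, Xcl1 reached 1.06 FPKM in hepatocytes and Ccl17, a ligand of Ccr4, 1.21 FPKM in mouse-1 (P35) IL6-iMHs, whereas the rest stayed at or below 0.584 FPKM. In the liver table Ccl8 and Xcl1 were the highest untested members, at 1.36 FPKM each in a PHX-D7 liver. Cxcl5, Cxcl3, Cxcl17, Ccl20 and Cx3cl1, which entered the test in the cells, did not exceed 0.820 FPKM in any liver. FPKM is a value per transcript length, so levels of different genes may be set side by side. The 4 highest members by mean level were Cxcl1, Ccl2, Cxcl5 and Ccl9 in the cell table and Cxcl12, Cxcl1, Ccl9 and Ccl6 in the liver table. The near-identical pairs Ccl21a and Ccl21b, and Ccl27a and Ccl27b, can share reads, so their values are uncertain.

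**Figure D1:**
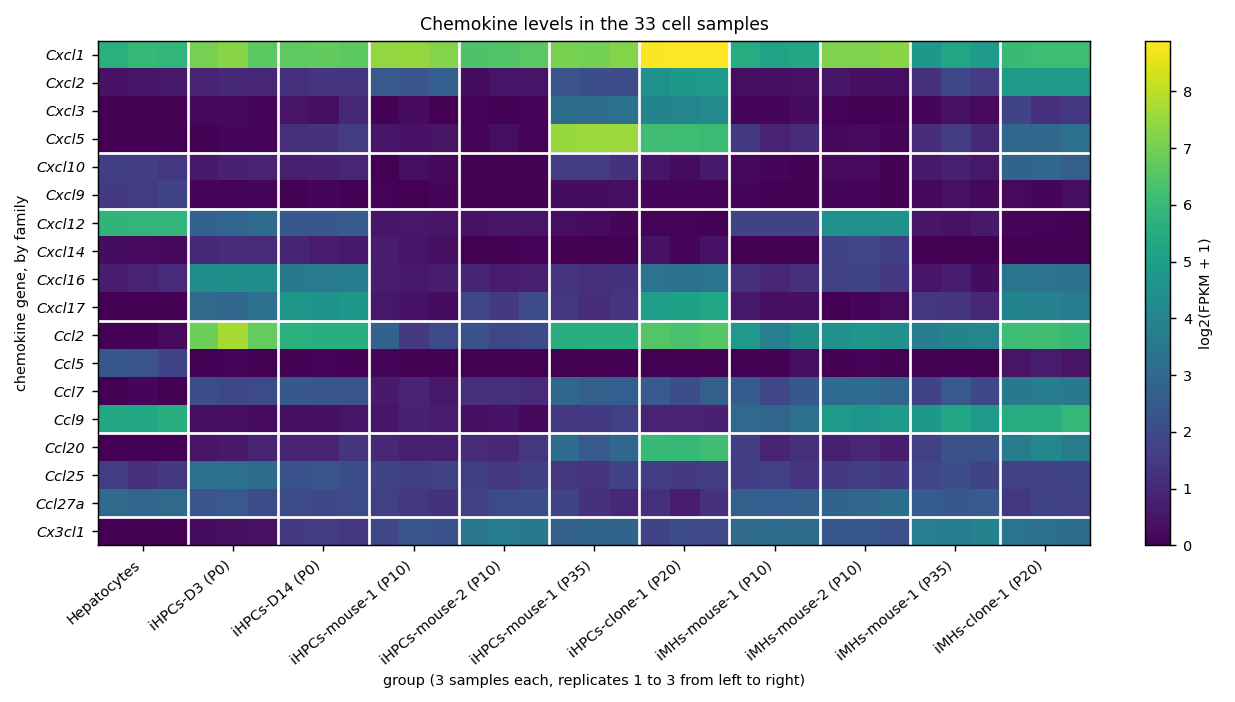
Level of the 18 tested chemokine ligands in each of the 33 cell samples, as log2(FPKM + 1) by colour, with genes in rows grouped by family and samples in columns grouped by stage. Cxcl1 is high in every column, Ccl9 and Cxcl12 are high in hepatocytes and low in IL6-iHPCs, and the ELR ligands Cxcl3 and Cxcl5 are high in the mouse-1 (P35) and clone-1 IL6-iHPCs.

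The first comparison asks which chemokines changed as hepatocytes entered culture with IL6. At day 3, 6 members were higher and 4 lower than in hepatocytes. The largest rises were those of Ccl2, the main monocyte attractant, Cxcl16, a membrane-bound ligand of Cxcr6, and Cxcl17, a mucosal chemokine, and the largest falls those of Ccl9, an attractant of myeloid cells, and Cxcl12, the ligand of Cxcr4. Ccl2 was listed at 0, 0.0320 and 0.176 FPKM in the hepatocyte samples and at 121, 213 and 110 FPKM at day 3. The groups lie far apart, with a log2 difference of 7.06 ± 0.22 on the log2(FPKM + 1) scale (standard error; adjusted p = 1.2e-22, limma with Benjamini-Hochberg adjustment). Cxcl16 went from 0.591, 0.798 and 1.13 FPKM to 19.3, 20.4 and 19.7 FPKM (log2 difference 3.51 ± 0.10, adjusted p = 6.3e-24). Cxcl17 had no read in hepatocytes and 7.33, 6.66 and 8.40 FPKM at day 3, at least 381-fold higher when 3 reads over the group are taken as the floor (adjusted p = 1.4e-20). Ccl9 was among the most abundant members in hepatocytes, at 39.0, 39.0 and 47.1 FPKM, and read 0.251, 0.255 and 0.189 FPKM at day 3. Its log2 value fell by 5.11 ± 0.12 (adjusted p = 9.3e-26). Cxcl12 went from 54.7, 57.0 and 57.3 FPKM to 5.90, 6.51 and 7.57 FPKM, a fall by 2.91 ± 0.06 (adjusted p = 1.9e-26). The groups did not overlap for any of the 18 tested members, called or not, so this does not set the 5 genes apart. The share of all genes without overlap is not reported here.

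Of the 18 members tested, 10 were called at day 3 (adjusted p under 0.05 and at least 2-fold), against 66% of all 12328 genes tested, 53.9% higher and 12.1% lower. The members' median log2 difference was 0.40, and that of all genes 1.14. The other called members were Ccl7, Ccl25 and Cxcl1, which were higher, and Ccl5 and Cxcl9, which were lower. Cxcl1, the most abundant chemokine of the cell table, read 48.5, 60.4 and 56.6 FPKM in hepatocytes and 134, 156 and 99.4 FPKM at day 3 (log2 difference 1.20 ± 0.12, adjusted p = 1.9e-10). Ccl25, a ligand of Ccr9, had a log2 difference of 1.79, which was 0.23 with quantile normalization and then no longer called. With that normalization 5 members were higher and 6 lower, and the differences of Cxcl14 and Cxcl2, which were under 2-fold as deposited at 0.82 and 0.45, turned to -0.34 and -0.87.

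At day 14, 12 members differed from hepatocytes, 7 higher and 5 lower, against 62.9% of all genes, 50% higher and 12.9% lower. The median log2 difference was 0.80 over the members and 1.00 over all genes. With quantile normalization the split was 6 higher and 6 lower. Ccl2 read 50.6, 47.4 and 47.5 FPKM at day 14 (log2 difference from hepatocytes 5.54 ± 0.22, adjusted p = 5.6e-20). Cxcl17 reached 25.4, 22.6 and 25.7 FPKM, at least 1256-fold above the floor of the hepatocytes (adjusted p = 5.3e-25). Both stood well clear of the hepatocyte samples, and none of the 18 tested members overlapped them. Cxcl16 was at 10.9, 11.8 and 12.2 FPKM (log2 difference 2.79 ± 0.10, adjusted p = 2.1e-21). Ccl9 and Cxcl12 stayed low. Ccl9 read 0.261, 0.280 and 0.414 FPKM at day 14 (log2 difference from hepatocytes -5.01 ± 0.12, adjusted p = 1.5e-25). Cxcl12 read 4.27, 4.32 and 4.87 FPKM (log2 difference -3.39 ± 0.06, adjusted p = 4.4e-28). Cxcl1, at 102, 107 and 101 FPKM, lay above all hepatocyte samples, with a log2 difference of 0.90 that is under 2-fold (adjusted p = 6.6e-08). Ccl20, an attractant of cells bearing Ccr6, and Ccl27a were close to the 2-fold limit. The difference of Ccl20 was 1.01 and became 0.85 without IL6-iHPCs-D14 replicate 3, and that of Ccl27a was -1.01 and became -0.99 without hepatocyte replicate 1 or 3 and -0.98 without IL6-iHPCs-D14 replicate 2.

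Between day 3 and day 14, 5 of the 18 members were called, 3 higher and 2 lower, against 10.2% of all genes, 5.12% higher and 5.05% lower. Both days are set against the same hepatocyte samples above, so this is the direct comparison of the days. Cxcl17 rose from 7.33, 6.66 and 8.40 FPKM to 25.4, 22.6 and 25.7 FPKM (log2 difference 1.60 ± 0.12, adjusted p = 1.1e-12). Cxcl5, which attracts neutrophils, rose from 0.0424, 0.0802 and 0.0807 FPKM to 1.31, 1.43 and 1.93 FPKM (1.25 ± 0.12, adjusted p = 1.7e-10). Cx3cl1, the membrane-anchored ligand of Cx3cr1, rose from 0.240, 0.267 and 0.324 FPKM to 1.88, 2.01 and 1.67 FPKM (1.16 ± 0.10, adjusted p = 1.4e-11). None of these ranges touch, which held for 13 of the 18 tested members. Ccl2 fell by 1.53 ± 0.22 on the log2 scale between the days (adjusted p = 7.3e-07) and Ccl25, from 8.96, 8.45 and 7.87 FPKM to 3.72, 4.02 and 3.40 FPKM, by 1.00 ± 0.10 (adjusted p = 1.3e-09). The call of Ccl25 lay at the limit and was lost without IL6-iHPCs-D3 replicate 1 (-0.96) or 2 (-1.0, just under 2-fold) or IL6-iHPCs-D14 replicate 3 (-0.95). With quantile normalization 2 of the 5 were still called, and the differences of Cxcl5, Cx3cl1 and Ccl25 were 0.88, 0.92 and -0.87.

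**Figure D2:**
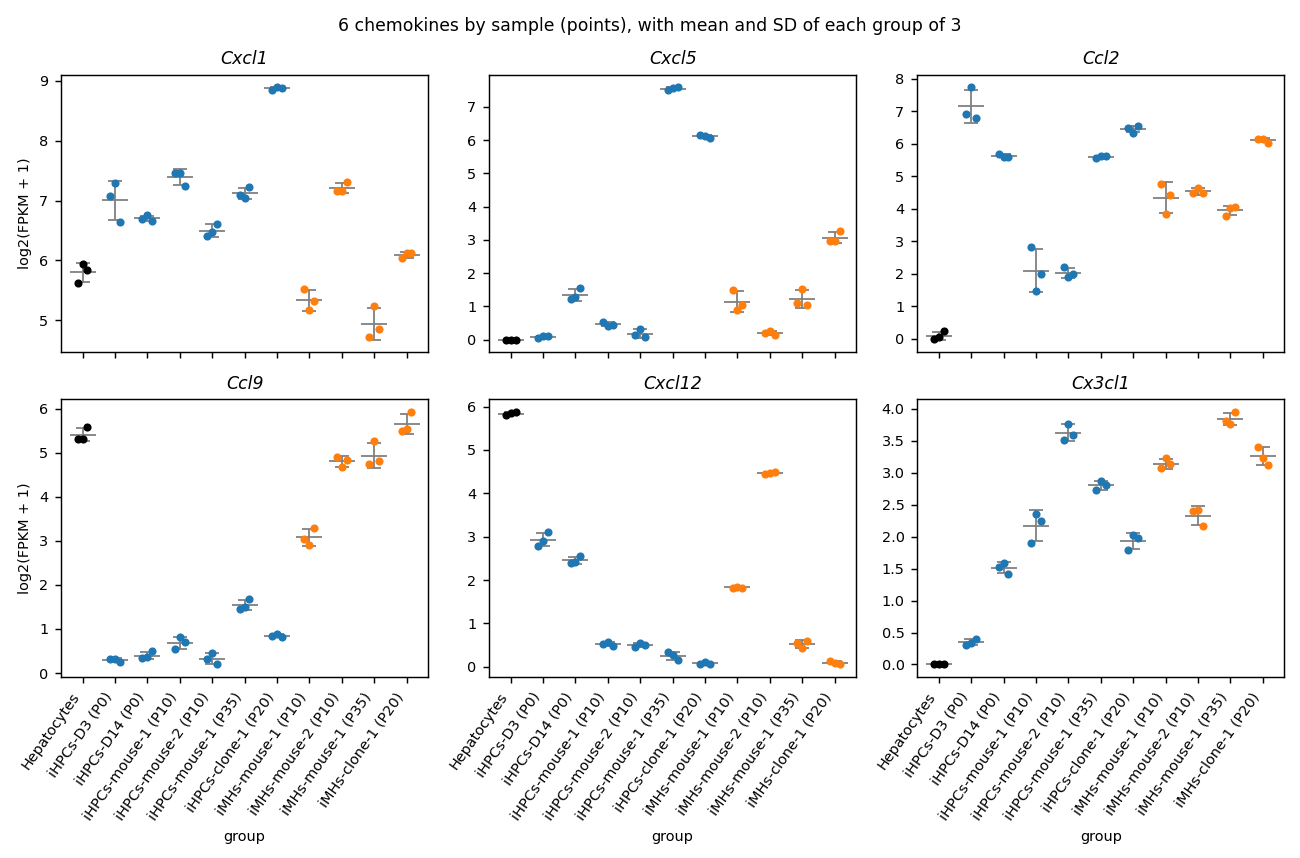
Level of Cxcl1, Cxcl5, Ccl2, Ccl9, Cxcl12 and Cx3cl1 in each cell sample, as log2(FPKM + 1) on the vertical axis by group, with points for samples and a bar for the mean and SD of 3. Hepatocytes are black, IL6-iHPCs blue and IL6-iMHs orange. Cxcl5 spans 0.0653 to 191 FPKM among the passaged IL6-iHPCs, and Ccl9 lies at or below 2.19 FPKM in all IL6-iHPCs and between 6.45 and 59.8 FPKM in IL6-iMHs.

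In the passaged lines, 15 of the 18 members differed from hepatocytes on average over the 4 lines, 9 higher and 6 lower, against 59.4% of all genes, 48.1% higher and 11.3% lower. All 4 tested ELR ligands were among those that rose on average. Line by line, all 4 were called higher in mouse-1 (P35) and clone-1, only Cxcl2 and Cxcl1 in mouse-1 (P10), and none in mouse-2 (P10). Over the members the median was 1.16 and over all genes 0.93. The 12 samples of Cxcl5 had a lowest level of 0.0653, a median of 33.3 and a highest of 191 FPKM, where hepatocytes had no read, at least 7124-fold above the floor for the mean (log2 difference 3.58 ± 0.09, adjusted p = 6.1e-25). The lines were far apart in this gene. Cxcl5 read 0.453, 0.342 and 0.369 FPKM in mouse-1 (P10) and 0.0949, 0.252 and 0.0653 FPKM in mouse-2 (P10). It read 181, 189 and 191 FPKM in the older mouse-1 (P35) cells, and clone-1 had 70.8, 68.2 and 66.1 FPKM. The other ELR ligands differed by line as well. Cxcl3 reached 8.11, 8.10 and 8.93 FPKM in mouse-1 (P35) and 14.9, 15.5 and 17.6 FPKM in clone-1 and stayed at or below 0.192 FPKM in both P10 lines. Cxcl1 was above 83 FPKM in all 12 samples, with a lowest level of 83.9, a median of 149 and a highest of 473 FPKM (log2 difference from hepatocytes 1.66 ± 0.10, adjusted p = 3.3e-16).

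Among the CC chemokines, Ccl2 had a lowest level of 1.79, a median of 25.9 and a highest of 91.7 FPKM in passaged IL6-iHPCs (log2 difference from hepatocytes 3.95 ± 0.18, adjusted p = 5.8e-19). All 12 samples lay above the hepatocytes, with both P10 lines at or below 6.01 FPKM. Ccl20 was highest in clone-1, at 64.5, 60.8 and 70.4 FPKM, against 7.59, 4.77 and 7.03 FPKM in mouse-1 (P35) and at most 1.66 FPKM in the P10 lines (log2 difference from hepatocytes 2.73 ± 0.14, adjusted p = 8.2e-18). Cxcl12 had a lowest level of 0.0368, a median of 0.316 and a highest of 0.480 FPKM, and its log2 value fell by 5.50 ± 0.05 from that of hepatocytes (adjusted p = 4.5e-36). Ccl9 had a lowest level of 0.144, a median of 0.762 and a highest of 2.19 FPKM and fell by 4.56 ± 0.10 (adjusted p = 3.1e-27). Taken line by line, Ccl2 and Cx3cl1 were higher and Ccl27a, Ccl5, Ccl9, Cxcl12 and Cxcl9 lower than hepatocytes in all 4 lines. The lines mouse-1 (P10), mouse-2 (P10), mouse-1 (P35) and clone-1 had 10, 11, 14 and 16 members called, where 52.6%, 55.9%, 66% and 61.9% of all genes were called. Without clone-1 the average over the other 3 lines still gave 15 called members, 9 higher and 6 lower, with log2 differences of 1.63 for Ccl20, 2.74 for Cxcl5 and 1.14 for Cxcl3. For averages without clone-1, here and below, the share of all genes called is not reported here, so these counts have no background. The ranges of Cxcl10 and Cxcl2 overlapped those of hepatocytes. Cxcl10, at -1.02, lost its call without hepatocyte replicate 1 (-0.98) or 2 (-0.99), clone-1 replicate 2 (-0.99), mouse-1 (P35) replicate 3 (-0.99) or mouse-1 (P10) replicate 1 (-1.0, just under 2-fold), and Cxcl2, at 1.95, was at 0.83 and not called with quantile normalization.

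Mouse-1 was sampled at passages 10 and 35, which allows a comparison within 1 animal's cells, although nothing states that the samples of a passage are separate cultures. In it 6 members were higher at P35 and 0 lower, against 33.7% of all genes in either direction, 24.8% higher and 8.94% lower. The members' median difference was 0.64, and that of all genes 0.36. The 6 were the neutrophil attractants Cxcl5 and Cxcl3, the monocyte attractants Ccl2 and Ccl7, Ccl20 and Cxcl10. Cxcl5 rose from the values of 0.342 to 0.453 FPKM to those of 181 to 191 FPKM, 482-fold in mean level (log2 difference 7.08 ± 0.12, adjusted p = 1.2e-28). Ccl2 rose from 6.01, 1.79 and 2.99 FPKM to 45.9, 47.9 and 47.9 FPKM (3.5 ± 0.22, adjusted p = 1.2e-14). Cxcl3 rose from 0.0399, 0.192 and 0.0188 FPKM to 8.11, 8.10 and 8.93 FPKM (3.12 ± 0.12, adjusted p = 4.9e-20). These groups lie apart, as did those of 16 of the 18 tested members. Cxcl1, by contrast, read 175, 176 and 150 FPKM at P10 and 136, 131 and 149 FPKM at P35. The neutrophil marker list summed to 0.161 to 0.219 FPKM at P10 and 86.4 to 92.3 FPKM at P35, with 2 of its 6 markers at 0 and 4 under 1 FPKM at P35, and to 28.0 to 36.6 FPKM in clone-1. The 4 monocyte markers summed to 17.3 to 19.5 FPKM at P10, 191 to 210 FPKM at P35 and 366 to 409 FPKM in clone-1, with Plac8 higher at P35 and 3 of the 4 under 1 FPKM in each of these groups. The part of either list in the result was not tested.

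The next comparison asks which chemokines differed between lines in the maturation medium and the IL6-iHPCs of the same label. For clone-1, given its Y-linked reads, maturation and a different source of cells cannot be told apart. On average over the lines 6 of the 18 members were called, 3 higher (Ccl9, Cxcl12 and Ccl27a) and 3 lower (Cxcl5, Cxcl1 and Cxcl3), against 28.1% of all genes, 6.68% higher and 21.4% lower. The members' median was 0.15 and that of all genes -0.40. With quantile normalization 9 were called, 6 higher and 3 lower. Without clone-1 again 6 were called, 4 higher (Ccl9 at 3.42, Cxcl12 at 1.85, Ccl27a at 1.14 and Ccl2 at 1.04) and 2 lower (Cxcl5 at -1.88 and Cxcl1 at -1.17). Ccl9 was the one member whose IL6-iMH and IL6-iHPC samples did not overlap at all, with a lowest level of 6.45, a median of 27.3 and a highest of 59.8 FPKM in IL6-iMHs (log2 difference 3.77 ± 0.06, adjusted p = 1.2e-29). It rose in each line, by log2 differences of 4.81 in clone-1, 4.48 in mouse-2 (P10), 3.39 in mouse-1 (P35) and 2.39 in mouse-1 (P10). Cxcl12 rose to 20.9, 21.1 and 21.3 FPKM in mouse-2 (P10) and to 2.54, 2.58 and 2.53 FPKM in mouse-1 (P10), and stayed at or below 0.511 FPKM in mouse-1 (P35) and clone-1 (log2 difference on average 1.39 ± 0.03, adjusted p = 8.2e-26). Ccl27a, a ligand of Ccr10, had a difference of 1.01 ± 0.08 (adjusted p = 3.9e-13). That value lay at the limit and was 0.97 to 0.99, and not called, without any 1 of the samples clone-1 replicate 2 (either stage), IL6-iHPCs mouse-1 (P10) replicate 3, mouse-1 (P35) replicate 3 or mouse-2 (P10) replicate 1, or IL6-iMHs mouse-2 (P10) replicate 3.

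Cxcl5 and Cxcl3 went down in the lines in which they had been high. Cxcl5 fell by 6.32 log2 units in mouse-1 (P35), to 1.16, 1.90 and 1.06 FPKM, and by 3.04 in clone-1, to 6.87, 6.88 and 8.59 FPKM (on average a difference of -2.17 ± 0.06, adjusted p = 3.3e-24). In the P10 lines its differences were 0.67 and 0.02 and under 2-fold. Cxcl1 fell by 2.05 in mouse-1 (P10), to 44.9, 34.9 and 39.0 FPKM, by 2.18 in mouse-1 (P35), to 25.5, 36.8 and 28.1 FPKM, and by 2.78 in clone-1, to 64.5, 68.8 and 68.9 FPKM. In mouse-2 (P10) it read 142, 142 and 157 FPKM after maturation against 83.9, 87.9 and 96.8 FPKM before, a difference of 0.71 that is under 2-fold. Averaged over the lines, the log2 value of Cxcl1 fell by 1.57 ± 0.06 (adjusted p = 2e-20) and that of Cxcl3 by 1.39 ± 0.06 (adjusted p = 2.7e-19). Without clone-1 the difference of Cxcl3 was -0.98 and not called. Ccl2 moved in both directions. It rose by log2 differences of 2.25 and 2.50 in mouse-1 (P10) and mouse-2 (P10), to 26.2, 13.2 and 20.6 FPKM and to 21.1, 23.9 and 21.4 FPKM, and fell by 1.64 in mouse-1 (P35), to 12.8, 15.3 and 15.5 FPKM. Cx3cl1 rose by 1.04 in mouse-1 (P35) and by 1.32 in clone-1 and fell by 1.3 in mouse-2 (P10). The neutrophil markers S100a8 and S100a9 were also lower in IL6-iMHs, where the list summed to at most 2.09 FPKM, and the Kupffer cell list summed to 32.5 to 40.7 FPKM in mouse-1 (P35) IL6-iMHs against 4.51 to 5.72 FPKM before, with Csf1r higher on average over the lines. In those mouse-1 (P35) IL6-iMHs 7 of the 9 Kupffer cell markers were under 1 FPKM, and Clec4f, Vsig4, Cd5l and Timd4 were at 0. The part of either list in the chemokine results was not tested. The lines had 7, 8, 7 and 9 members called, in the order given above, where 25%, 39.9%, 45.3% and 23.6% of all genes were called.

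**Figure D3:**
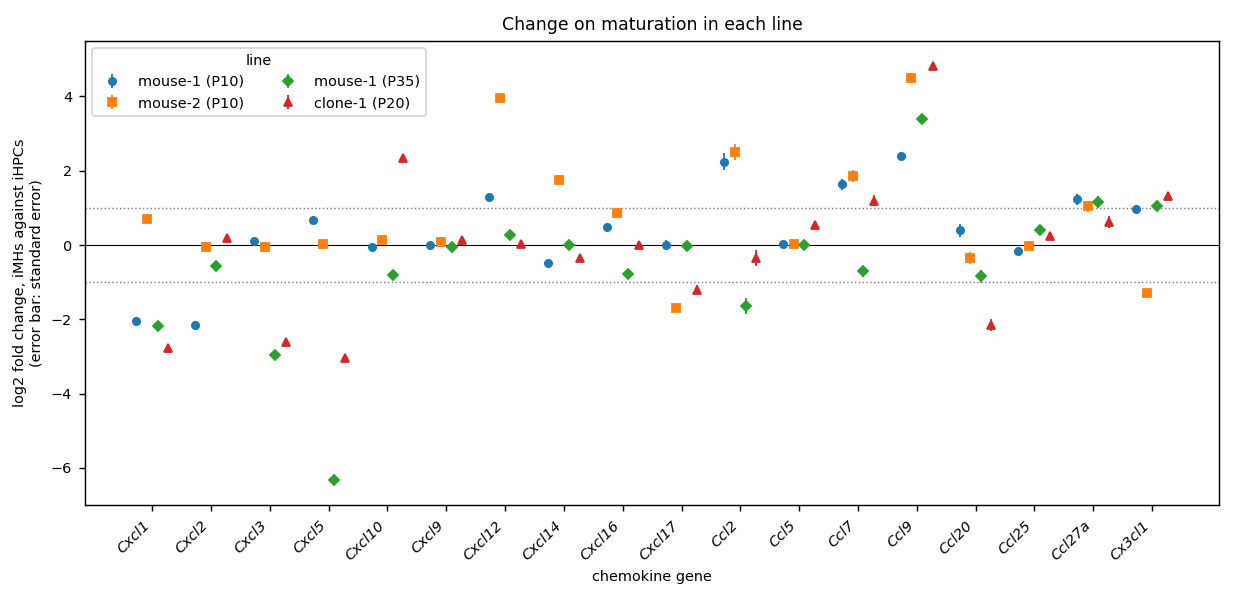
Log2 difference of each of the 18 tested members between IL6-iMHs and IL6-iHPCs, on the vertical axis by gene, with 1 point and its standard error per line and dotted lines at -1 and 1. Ccl9 lies above 1 in all 4 lines, Cxcl5 reaches -6.32 in mouse-1 (P35), and Ccl2 has lines above 1 and below -1.

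Set against the freshly isolated hepatocytes, IL6-iMHs differed in 10 of the 18 members, 7 higher and 3 lower, against 32.6% of all genes, 24.8% higher and 7.79% lower. The members' median was 0.38 and that of all genes 0.46, and with quantile normalization 6 were higher and 5 lower. The comparison uses the same hepatocyte samples as those above. Ccl2 in IL6-iMHs had a lowest level of 12.8, a median of 21.3 and a highest of 70.3 FPKM, all above the hepatocytes (log2 difference 4.64 ± 0.18, adjusted p = 2.4e-20). Cx3cl1 had a lowest level of 3.48, a median of 8.06 and a highest of 14.5 FPKM, at least 1788-fold above the floor for the mean (3.14 ± 0.08, adjusted p = 2.7e-25). Ccl7, a relative of Ccl2, had a lowest level of 2.50, a median of 5.77 and a highest of 12.2 FPKM, against at most 0.0967 FPKM in hepatocytes (2.71 ± 0.12, adjusted p = 9.5e-19). These 3 were called in every line. Cxcl12 was lower in every line, with a difference of -4.11 ± 0.05 on average (adjusted p = 1e-32), as was Ccl5, an attractant of T cells and monocytes, with a difference of -2.0 ± 0.08 (adjusted p = 2.9e-20). Ccl5 read 4.40, 3.95 and 2.43 FPKM in hepatocytes and at most 0.624 FPKM in any culture. Cxcl1 in IL6-iMHs had a lowest level of 25.5, a median of 54.7 and a highest of 157 FPKM, on both sides of the hepatocytes, with a difference of 0.09 (adjusted p = 0.38), and Ccl9 remained lower by a difference of -0.79 that is under 2-fold (adjusted p = 9.1e-09). Cxcl10 was called in opposite directions in different lines, with 6.12, 7.03 and 5.4 FPKM in clone-1 IL6-iMHs against 2.10, 2.07 and 1.69 FPKM in hepatocytes. Without clone-1, 9 members were called, 4 higher and 5 lower, and Cxcl17, Cxcl2 and Cxcl5 were not called, at 0.61, 0.28 and 0.86.

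The summed level of all 35 members varied between lines as well as stages. It was 164 to 181 FPKM in hepatocytes, 264 to 423 FPKM at day 3 and 212 FPKM in each day 14 sample. The FPKM of all genes together summed to 587145 to 605850 in hepatocytes and to 367156 to 387736 at day 3. Summed levels of different groups are therefore not shares of the same total. The sum was 170 to 199 FPKM in mouse-1 (P10), 110 to 124 FPKM in mouse-2 (P10), 406 to 430 FPKM in mouse-1 (P35) and 773 to 802 FPKM in clone-1 IL6-iHPCs. IL6-iMHs of the same labels were at 79.3 to 108, 239 to 253, 96.4 to 128 and 286 to 297 FPKM. The sum was lower after maturation in both mouse-1 lines and under the label clone-1, and higher in mouse-2 (P10).

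The receptors of these ligands were nearly silent in the cells. None of the 19 chemokine receptors reached the level needed for the test in the cell table. Of the atypical receptors, which bind chemokines without G-protein signalling, Ackr3, a scavenger of Cxcl12, stood at 14.3 ± 0.144 FPKM in mouse-1 (P35) and 0.570 ± 0.0802 FPKM in mouse-1 (P10) (SD, n = 3 samples; log2 difference 3.29 by limma). The 13 regulators listed, of the NF-kappaB, IRF and STAT families with their feedback genes, were all tested. Against hepatocytes 8 were higher and 1 lower at day 3, 7 higher and 1 lower at day 14, 8 higher and 2 lower in passaged IL6-iHPCs, and 5 higher and 3 lower in IL6-iMHs. Over all genes, 53.9%, 50%, 48.1% and 24.8% were higher and 12.1%, 12.9%, 11.3% and 7.79% lower in these comparisons. At day 3 Tnfaip3 and Nfkbiz, feedback genes of NF-kappaB, had log2 differences of 4.58 and 3.98, and Irf7, a mediator of interferon responses, had -4.65. During maturation 1 rose (Irf7, 1.66) and 3 fell, among them Socs3, the feedback inhibitor of IL6 signalling, with -2.61 and Nfkbiz with -2.06. Over all genes, 6.68% were higher and 21.4% lower in that comparison, so these counts of the 13 are close to the shares over all genes. The platelet chemokines Pf4 and Ppbp, which the name rule leaves out, were not tested in the cells.

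Markers of other cell types moved with some members in some cultures and not in others. The 6 of 7 listed lymphocyte markers in the table summed to 5.99 to 6.76 FPKM in hepatocytes and to at most 0.147 FPKM in any culture, beside the falls of Ccl5 and Cxcl9. The 6 endothelial markers summed to 16.2 to 18.6 FPKM in hepatocytes, 6.80 to 8.30 FPKM at day 3 and at most 0.704 FPKM later, beside the fall of Cxcl12. Of the 5 tested, Clec4g alone was called lower at day 3. The median log2 difference of the 5 was then 0.22, against 1.14 over all genes. At day 14 and in passaged IL6-iHPCs Clec4g and Kdr were lower. The 9 Kupffer cell markers summed to 15.2 to 17.5 FPKM in hepatocytes, 20.9 to 26.7 FPKM at day 3, 3.70 to 4.41 FPKM at day 14 and 0.957 to 9.65 FPKM in passaged IL6-iHPCs, beside the fall of Ccl9. Of the 5 tested, Cd5l, C1qa and Clec4f were lower than in hepatocytes and Cd68 was higher at day 3, at day 14 and in passaged IL6-iHPCs, and 8 of the 9 were under 1 FPKM in each of these cultures. In IL6-iMHs Ccl9 rose in each line. The Kupffer cell list there summed to 1.39 to 1.48 FPKM in mouse-2 (P10), below its IL6-iHPCs, and to 3.48 to 40.7 FPKM in the other lines, above theirs. In each of these lines 7 or 8 of the 9 markers were under 1 FPKM, and Clec4f, Vsig4, Cd5l and Timd4 were at 0. Cxcl12 rose in the IL6-iMHs of mouse-2 (P10) and mouse-1 (P10). The endothelial markers summed to 0.0682 to 0.101 FPKM and 0.175 to 0.281 FPKM in them. Ccl2 was higher than in hepatocytes at day 3, at day 14 and in passaged IL6-iHPCs. The monocyte markers summed to 7.09 to 8.30 FPKM in hepatocytes and 0.291 to 0.332 FPKM at day 3. Their sum was 6.89 to 10.2 FPKM at day 14 and 17.3 to 409 FPKM in passaged IL6-iHPCs. At day 3 the tested markers Ly6c2 and Plac8 were both lower than in hepatocytes. At day 14 and in passaged IL6-iHPCs Plac8 was higher and Ly6c2 lower. Their part in these results was not tested.

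Another table, normalised separately, held 480 complete genes at day 7 and only Ccl20 and Ccl7 among the members. It compares hepatocytes kept for 7 days in the medium without IL6 (HCM-Hepa-D7) with IL6-iHPCs-D7. Ccl7 read 10.7, 9.25 and 9.88 FPKM without IL6 and 6.61, 5.94 and 6.70 FPKM with it. The groups did not overlap, but 3 samples against 3 cannot give an exact two-sided permutation p below 0.1, which was the value here (adjusted over both genes, 0.2). Ccl20 read 6.74, 7.07 and 7.30 FPKM without IL6 and 7.30, 5.19 and 6.73 FPKM with it, and the groups overlapped (exact permutation p = 0.5). Both genes were listed at 0 in the primary hepatocytes of that table.

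**Figure D4:**
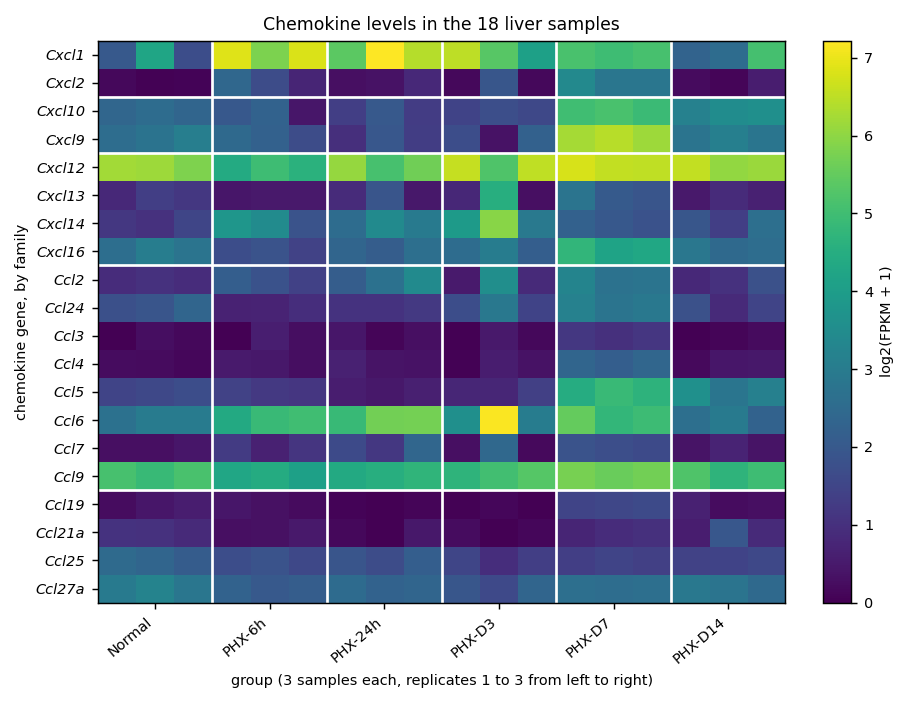
Level of the 20 tested chemokine ligands in each of the 18 livers, as log2(FPKM + 1) by colour, with genes in rows grouped by family and livers in columns by time after partial hepatectomy. Cxcl1 and Ccl6 are high at 6 h and 24 h, most rows are high at day 7, and PHX-D3 replicate 2 differs from the other PHX-D3 livers in Ccl6, Cxcl13 and Cxcl14.

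In livers the question was which chemokines changed in the course of regeneration, and all time points are compared with the same 3 Normal livers. At 6 h, 4 members were higher and 3 lower, against 16.3% of all 11114 genes tested, 4.78% higher and 11.5% lower, and with quantile normalization 4 were higher and 1 lower. Median log2 differences were -0.47 for the members and -0.28 for all genes. Cxcl1 read 3.07, 17.8 and 2.28 FPKM in Normal livers and 115, 55.03 and 111 FPKM at 6 h (log2 difference 3.83 ± 0.78, adjusted p = 0.00082). The lowest PHX-6h liver was above the highest Normal liver, and the groups did not overlap for 18 of the 20 tested members. Ccl6, a myeloid CC chemokine, went from 5.46, 7.03 and 6.99 FPKM to 19.8, 28.6 and 30.9 FPKM (1.86 ± 0.71, adjusted p = 0.038). The call of Ccl6 was lost whichever of the 6 livers was left out, with differences of 1.74 to 2.04 and adjusted p of 0.0542 to 0.0932. Cxcl14 was at 1.25, 1.03 and 1.83 FPKM and at 13.0, 10.2 and 2.62 FPKM (1.82 ± 0.60, adjusted p = 0.02). Its call was lost without PHX-6h replicate 1 (1.44) or 2 (1.60) or Normal replicate 2 (1.72). Cxcl2, a close relative of Cxcl1, was the remaining rise, to 4.29, 2.21 and 0.690 FPKM from at most 0.114 FPKM (1.52, adjusted p = 0.0071).

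Cxcl12 was the most abundant member in Normal livers, at 73.9, 70.0 and 55.6 FPKM, and stood at 20.5, 30.6 and 23.2 FPKM at 6 h. Its log2 value fell by 1.4 ± 0.31 (adjusted p = 0.0015), and the groups did not overlap. Ccl24, an eosinophil attractant, went from 2.42, 2.74 and 4.11 FPKM to 0.625, 0.631 and 0.927 FPKM (a fall by 1.23 ± 0.30, adjusted p = 0.0034), and Cxcl16 fell by 1.16. With quantile normalization the differences of Ccl24 and Cxcl16 were -0.95 and -0.86 and not called. Beside these falls, the 9 Kupffer cell markers summed to 63.5 to 126 FPKM at 6 h against 172 to 274 FPKM in Normal livers, with 7 of the 9 lower and none at 0, and the neutrophil markers to 43.4 to 44.9 FPKM against 2.11 to 7.53 FPKM, with 3 of the 4 tested higher. The endothelial markers summed to 66.2 to 77.4 FPKM against 104 to 112 FPKM, with Kdr and Clec4g lower and Lyve1 higher. Their part in the chemokine results was not tested. Among the regulators, Socs3 and Stat3 rose by log2 differences of 2.98 and 1.64, and Irf1 fell by 1.81.

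At 24 h, 5 members were higher and 2 lower than in Normal livers, against 7.9% of all genes, 3.74% higher and 4.16% lower. The members' median was -0.37 and that of all genes -0.02. Cxcl1 read 41.2, 148 and 84.0 FPKM, all above the Normal livers (log2 difference 3.68 ± 0.78, adjusted p = 0.0024). Ccl6 read 27.9, 50.6 and 51.4 FPKM (2.52 ± 0.71, adjusted p = 0.014), with a difference of 2.37 that was no longer called without PHX-24h replicate 3. Ccl2 read 0.877, 1.02 and 0.879 FPKM in Normal livers and 3.38, 5.48 and 9.97 FPKM at 24 h (1.82 ± 0.57, adjusted p = 0.024). The ranges are apart, yet the adjusted p of Ccl2 rose above 0.05 when any of the livers but PHX-24h replicate 1 was left out, with a difference of 1.47 without PHX-24h replicate 3. The same was found for Cxcl14 (1.76 ± 0.60, adjusted p = 0.035), with 1.54 without PHX-24h replicate 2, and Ccl7 (1.39 ± 0.43, adjusted p = 0.023) was lost without PHX-24h replicate 3 (1.06) or any 1 of the Normal livers. Cxcl9 went from 4.99, 5.78 and 7.49 FPKM to 0.965, 2.90 and 1.5 FPKM, a fall by 1.39 ± 0.37 (adjusted p = 0.0096). Ccl5 went from 1.79, 1.95 and 2.27 FPKM to 0.505, 0.373 and 0.546 FPKM, a fall by 1.03 ± 0.20 (adjusted p = 0.0013). The groups lay apart for both, as for 15 of the 20 tested members. Yet the difference of Ccl5 was -0.98 with quantile normalization, -0.96 without Normal replicate 3 and -0.98 without PHX-24h replicate 2, and then under 2-fold. At 24 h the neutrophil markers summed to 9.71 to 83.8 FPKM against 2.11 to 7.53 FPKM in Normal livers, with S100a8, S100a9 and Retnlg of the 4 tested higher. The Kupffer cell markers summed to 159 to 170 FPKM, with Marco higher and Csf1r and Clec4f lower, the endothelial markers to 73.5 to 83.2 FPKM, with Lyve1 higher and Kdr lower, and the lymphocyte markers to 0.285 to 0.557 FPKM, with none of the 4 tested called. Their part in these results was not tested. The count of called members was 4 without Normal replicate 2 and 3 without Normal replicate 3 or PHX-24h replicate 3.

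Between 6 h and 24 h, Cxcl2 was the 1 member called, against 6.72% of all genes, 5.19% higher and 1.53% lower. It read 0.231, 0.266 and 0.771 FPKM at 24 h. Its groups overlapped (log2 difference -1.13 ± 0.42, adjusted p = 0.048), and the call was lost without any 1 of the PHX-24h livers or without PHX-6h replicate 1 (-0.73) or 2 (-1.09).

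At day 3 after surgery, 2 members were higher and 3 lower than in Normal livers, against 5.82% of all genes, 3.33% higher and 2.49% lower. Both medians were near 0, with 0.03 for the members and 0.01 for all genes. Cxcl14 read 14.2, 59.7 and 6.62 FPKM, above every Normal liver (log2 difference 3.03 ± 0.60, adjusted p = 0.0024). Cxcl1 read 89.7, 39.3 and 16.3 FPKM and overlapped the Normal livers, of which replicate 2 was at 17.8 FPKM (2.66 ± 0.78, adjusted p = 0.019). Its call was lost without PHX-D3 replicate 1 (2.07) or Normal replicate 1 (2.34) or 3 (2.19). PHX-D3 replicate 2, the liver that stood apart, read 144 FPKM for Ccl6 against 11.1 and 7.10 FPKM in the others, 22.1 FPKM for Cxcl13, the B cell attractant, against 0.747 and 0.229 FPKM, and 10.8 FPKM for Ccl2 against 0.431 and 0.824 FPKM. The monocyte markers summed to 108 FPKM in the highest PHX-D3 liver and to 5.73 and 6.87 FPKM in the others, and the neutrophil markers to 7.63 to 41.5 FPKM, with S100a9 higher in these livers as was Marco of the Kupffer cell list. Their part in these values was not tested. Cxcl9, at 2.26, 0.269 and 3.72 FPKM, had a difference of -1.38 ± 0.37 (adjusted p = 0.012). Ccl27a, from 6.78, 8.38 and 6.12 FPKM to 2.80, 2.04 and 4.07 FPKM, fell by 1.05 ± 0.17 (adjusted p = 0.00055), and Ccl25, which attracts cells bearing Ccr9, fell by 1.04 (adjusted p = 0.0004). Without PHX-D3 replicate 2 the count was 2, Cxcl14 at 2.2 and Cxcl1 at 2.65, and Cxcl9, Ccl27a and Ccl25 were at -0.84, -0.87 and -0.88. Cxcl9 was also lost without Normal replicate 3 (-1.24), Ccl27a without Normal replicate 2 (-0.94) and Ccl25 without Normal replicate 1 (-0.95). The count was 3 without Normal replicate 1 or Normal replicate 3. Over all genes, 1030 in place of 647 were called without PHX-D3 replicate 3.

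Day 7 had the most called members of the liver time points, 11 of 20, all of them higher, against 8.84% of all genes in either direction, 7.81% higher and 1.03% lower. The members' median was 1.27 and that of all genes 0.13. With quantile normalization 8 were higher and 1 lower. The interferon-induced Cxcr3 ligand Cxcl9 read 75.0, 85.6 and 70.9 FPKM, against 4.99 to 7.49 FPKM in Normal livers (log2 difference 3.47 ± 0.37, adjusted p = 3.9e-06). Cxcl10, the other Cxcr3 ligand tested, read 31.2, 34.3 and 29.1 FPKM against 4.17, 4.88 and 4.10 FPKM (2.60 ± 0.34, adjusted p = 3e-05). Ccl5 read 21.1, 28.8 and 24.3 FPKM against 1.79 to 2.27 FPKM (3.09 ± 0.20, adjusted p = 2.4e-08). These 3 ligands act on T cells and NK cells, and their groups were far apart. The groups did not overlap for 19 of the 20 tested members. Cxcl2 rose to 9.60, 6.11 and 6.13 FPKM from at most 0.114 FPKM, 112-fold in mean level (2.93 ± 0.42, adjusted p = 8.3e-05). Ccl4, an attractant of monocytes and T cells, rose from at most 0.183 FPKM to 4.07, 3.49 and 4.25 FPKM (2.11, adjusted p = 3e-08), and Cxcl16 from 5.11, 7.33 and 5.89 FPKM to 26.0, 17.3 and 18.8 FPKM (1.60, adjusted p = 4.7e-05).

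Other members called at day 7 lost their call when single livers were left out. Cxcl1 read 34.4, 30.7 and 33.9 FPKM, above all Normal livers (log2 difference 2.43 ± 0.78, adjusted p = 0.028), and its call was lost without Normal replicate 1 (2.11) or 3 (1.96) or any 1 of the PHX-D7 livers. Ccl6 read 44.3, 26.7 and 29.97 FPKM (2.18, adjusted p = 0.03), and its call was lost whichever liver was left out. Ccl2, at 8.50, 5.60 and 5.83 FPKM (1.97, adjusted p = 0.017), lost its call without PHX-D7 replicate 1 (1.80), and Ccl7 (1.4, adjusted p = 0.024) without any liver but PHX-D7 replicate 3. Ccl19 (1.14) was at 0.84, Ccl6 at 1.99 and Ccl7 at 1.10 with quantile normalization, and none of these was then called. In all, 7 members were called without PHX-D7 replicate 1. Cxcl12 read 109, 93.7 and 90.7 FPKM and Ccl9 52.3, 46.2 and 49.98 FPKM at day 7, both above their Normal livers and both under 2-fold. The untested Ccl8, Ccl12, Ccl22, Cx3cl1 and Xcl1 also had their highest values at day 7, between 0.548 and 1.36 FPKM.

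**Figure D5:**
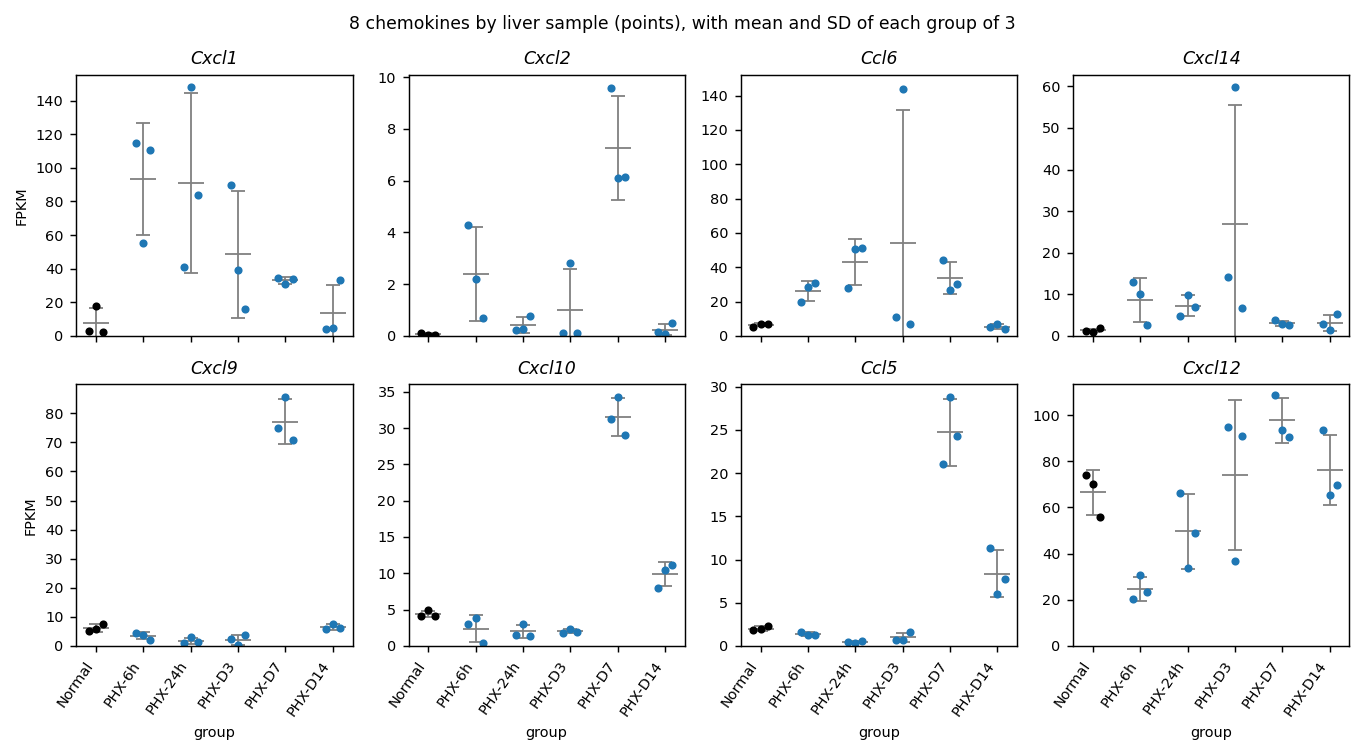
Level of Cxcl1, Cxcl2, Ccl6, Cxcl14, Cxcl9, Cxcl10, Ccl5 and Cxcl12 in each liver, in FPKM on the vertical axis from 0 by time after partial hepatectomy, with points for livers and a bar for the mean and SD of 3. SD bars that would run below 0 stop at the axis. Cxcl1 is highest at 6 h and 24 h, Cxcl9, Cxcl10 and Ccl5 are highest at day 7, and the single high points at day 3 in Ccl6 (144 FPKM) and Cxcl14 (59.7 FPKM) are replicate 2.

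Leukocyte markers moved with the day 7 values. All 9 Kupffer cell markers were higher, with sums of 998 to 1449 FPKM against 172 to 274 FPKM in Normal livers. All 4 tested lymphocyte markers were higher, and the 6 of 7 listed that are in the table summed to 17.0 to 19.3 FPKM against 1.47 to 2.62 FPKM. All 4 tested neutrophil markers were higher, and the 6 listed summed to 63.9 to 128 FPKM against 2.11 to 7.53 FPKM. Of the monocyte markers 2 of 4 were higher, and their sum was 45.3 to 57.1 FPKM against 4.32 to 6.93 FPKM. The endothelial markers summed to 137 to 210 FPKM against 104 to 112 FPKM, with 3 of the 6 higher. None of the defining markers of these lists was at 0 in either group, and their part in the chemokine results was not tested. Of the 5 chemokine receptors tested in livers, 4 were higher at day 7, and 0 were called at the other times. Cxcr4, the receptor of Cxcl12, was at 3.60 ± 0.133 FPKM against 0.115 ± 0.0380 FPKM (SD, n = 3; log2 difference 2.05 by limma). Ccr7, the receptor of Ccl19 and Ccl21, had a difference of 1.29. Of the 13 regulators 6 were higher and 0 lower at day 7, among them Tnfaip3 at 2.37 and Socs3 at 2.30. Over all genes, 7.81% were higher and 1.03% lower at that time. The cytokines Il1b and Il1a, which induce chemokines, had differences of 2.94 and 1.4. The summed level of all 36 members was 139 to 165 FPKM in Normal livers, 171 to 216 FPKM at 6 h, 184 to 292 FPKM at 24 h, 180 to 375 FPKM at day 3 and 393 to 451 FPKM at day 7.

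At day 14 the sum was 148 to 188 FPKM, and Ccl5 was the 1 member called, higher than in Normal livers, against 2.98% of all genes, 0.981% higher and 2% lower. The members' median was 0.12 and that of all genes -0.08. Ccl5 read 11.3, 6.00 and 7.79 FPKM (log2 difference from Normal 1.60 ± 0.20, adjusted p = 0.00013), above every Normal liver and below every PHX-D7 liver. Cxcl10 read 8.04, 10.49 and 11.2 FPKM, also between the Normal and the PHX-D7 livers, with a difference of 1.01 that missed the threshold (adjusted p = 0.051 by limma). Cxcl9 was at 5.79, 7.64 and 6.02 FPKM and overlapped the Normal livers. Cxcl1 was at 3.92, 4.90 and 32.98 FPKM, and replicate 3 alone lay above the Normal livers. The lymphocyte markers summed to 4.02 to 4.80 FPKM at this time, with Nkg7 higher, and the neutrophil markers to 23.0 to 27.0 FPKM, with S100a9 and Retnlg higher. The Kupffer cell markers summed to 121 to 157 FPKM, with Vsig4 and Clec4f lower. Their part in the result was not tested.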

How the data were processed

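RNA sequencing of cultured cells and livers was used as deposited. The authors deposited FPKM values per gene and sample, from paired-end Illumina reads, and per the labels' processing notes TopHat 1.4.1, Cufflinks 1.3.0 and mm10 were used. The counting rule and gene annotation are not given in the sources used here. Nearly all values were whole numbers of reads times a step set by gene and sample (18826 of 18828 genes in the cell table, 17327 of 17329 in the liver table, to within 0.05 of a read), which gave the depth of each sample. Since FPKM values are no counts, log2(FPKM + 1) was tested with limma 3.58.1 (R 4.3.3; empirical Bayes with trend), all groups of a table in 1 fit, for genes that reached 1 FPKM in 3 or more samples (12328 and 11114 genes). A gene was called at a Benjamini-Hochberg adjusted p under 0.05 over all genes tested and at least 2-fold. Tables were handled in Python 3.11.15 with numpy 2.4.6, pandas 2.3.3 and scipy 1.17.1. On simulated data with 200 changed genes, the fit called 200 of them and 0 others for day 3 against hepatocytes and 189 and 2 others for PHX-6h against Normal liver.

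The members and gene lists were chosen with earlier results of these data known. Values of every sample are given for the 4 members highest in each table and, in each comparison, for up to 3 largest rises and 2 largest falls among called members. Other members and genes with values were chosen after their values were seen. Alternatives were other pseudocounts, filters, fold limits and scalings, voom on recovered reads, the comparison's groups alone, a replicate block, and leaving out each sample or clone-1. Same-numbered samples did not deviate together, so no block was used. No count interval is given, since intervals would cover counting error only. The day 7 table ends within a row, and its 480 complete genes were used. Some genes of the receptor and regulator lists are counted but their values are not reported here.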

Additional observations from a re-analysis of the deposited data

Results flagged for a closer look

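The response to maturation (IL6-iMHs against IL6-iHPCs) differed between the 4 lines in 17 of the 18 members tested, by limma's F test of the difference between the lines with Benjamini-Hochberg adjustment over all genes, where 96.3% of all 12328 genes differed as well. Without clone-1, an alternative chosen after seeing the data, 15 of the 18 members differed between the other 3 lines, against 91.2% of all genes, and Ccl27a (adjusted p = 0.662) and Ccl5 (0.986) no longer did. The samples of a line are described as technical repeats, so the test covers only their spread. For the ELR ligands Cxcl5, Cxcl3, Cxcl1 and Cxcl2 the adjusted p was 1.3e-24, 1.3e-17, 6.9e-17 and 8.7e-14. Cxcl12 had 7.6e-25, Cxcl14 2.1e-17, Cxcl10 2.2e-17, Cxcl17 3.2e-11 and Cxcl16 3.5e-11. Among the CC ligands, Ccl9 had 1.8e-13, Ccl2 2.3e-13, Ccl7 7.9e-12, Ccl20 7.9e-10, Ccl5 0.00092, Ccl25 0.0037 and Ccl27a 0.045. Cx3cl1 had 1.1e-16. Cxcl9 did not pass (0.133). The size of these differences can be read from Cxcl12, which changed by 1.31, 3.97, 0.27 and 0.02 log2 units in mouse-1 (P10), mouse-2 (P10), mouse-1 (P35) and clone-1, and from Cxcl14, which changed by -0.49, 1.75, 0.00 and -0.34.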

How the results depend on the processing

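Of the 96 calls of single members over the 13 comparisons, 62 held under every alternative run other than the fold limits and 0 turned direction. At the 4-fold limit 45 of the 96 were left. Quantile normalization ended 14 calls, leaving out 1 sample 21, voom on recovered reads 5, the groups of the comparison alone 4, leaving out clone-1 4, no filter 3, and the 5 FPKM filter, the pseudocount of 0.1 and the replicate block 1 each. Under the 5 FPKM filter 82 calls held beside the 1 that ended. The members of the remaining calls were removed by that filter, so those calls were not tested under it. The number of members called moved by over 1.5 times as follows, and the cause was not tested. A 4-fold limit, which asks for larger changes by construction, left 6 at day 3 and 7 at day 14 against hepatocytes, 0 between day 3 and day 14, 8 in the passaged lines and 5 after maturation against hepatocytes, 2 in IL6-iMHs against IL6-iHPCs, and in livers 1 at 6 h, 2 at 24 h, 0 between 6 h and 24 h, 2 at day 3, 7 at day 7 and 0 at day 14. A 1.5-fold limit gave 10 for P35 against P10, 11 for IL6-iMHs against IL6-iHPCs, 12 at 6 h, 4 between 6 h and 24 h and 2 at day 14. A pseudocount of 0.1 gave 16 at day 3, 11 for P35 against P10, 2 between 6 h and 24 h, 8 at day 3 after surgery and 2 at day 14. Voom gave 17, 13, 2 and 2 for the first 3 and the last of these, and 12 for IL6-iMHs against IL6-iHPCs. Quantile normalization gave 2 between day 3 and day 14. The groups alone gave 0 between 6 h and 24 h, 2 at day 3 and 2 at day 14 after surgery, and 0 was left between 6 h and 24 h with no filter or the 5 FPKM filter.

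Leaving out 1 sample at a time gave 3 to 7 members at 24 h, 0 to 1 between 6 h and 24 h, 2 to 6 at day 3 and 7 to 10 at day 7 after surgery. The 0 was reached without PHX-24h replicate 1 or 3 or PHX-6h replicate 1. The replicate block gave 0 members between 6 h and 24 h (adjusted p of Cxcl2 0.06) and 2 at day 14 after surgery, and changed no other count. Samples shared only a number, since the median correlation of same-numbered deviations was -0.0156 in cells, with 33 of 165 pairs above 0.1, and -0.0551 in livers, with 7 of 45.

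Over all genes, the number called also moved by over 1.5 times. With the pseudocount of 0.1 and with voom it was 2147 and 2363 in place of 1254 between day 3 and day 14, 2921 and 3022 in place of 1810 at 6 h, 1412 and 1390 in place of 878 at 24 h, 1472 and 1513 in place of 747 between 6 h and 24 h, 1069 and 1081 in place of 647 at day 3, 1519 and 1556 in place of 982 at day 7 and 777 and 755 in place of 331 at day 14. Voom gave 6479 in place of 4020 for IL6-iMHs against hepatocytes and 5432 in place of 3459 against IL6-iHPCs, where quantile normalization gave 2281. The groups alone gave 281 at day 3 after surgery and the 5 FPKM filter 625 at day 7. Without PHX-D3 replicate 3, 1030 were called at day 3 after surgery. In the order of the comparisons above, a 4-fold limit left 4227, 3797, 235, 3230, 1298, 485, 318, 168, 78, 118, 229 and 44 genes, and 1026 for P35 against P10 (4160 at 2-fold). A 1.5-fold limit gave 3526 between day 3 and day 14, 6821 for P35 against P10, 6806 and 6473 for IL6-iMHs against hepatocytes and IL6-iHPCs, and in livers 3970, 2288, 2422, 1906, 2130 and 1167. Members under 1 FPKM could not be compared.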
